A study of Mus musculus with 16 samples.

Results

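Keratin-associated proteins are the matrix proteins in which the keratin filaments of hair are embedded, and in mice their genes carry symbols made of Krtap and a number. All genes with such a symbol were taken: 58 of the 55359 gene identifiers counted, in 27 numbered families. Strand-specific sequencing of poly(A) RNA was done on whole skin of the back from males of 8 weeks, and the labels call every sample telogen, the stage at which follicles rest. The 16 libraries form 4 groups of 4: wild type (WT) skin without UVB, WT skin after 3xUVB, Tnfrsf1a/b KO skin without UVB and Tnfrsf1a/b KO skin after 3xUVB. The knockout is directed at the genes of both receptors for tumour necrosis factor, TNFR1 and TNFR2, and the series asks how skin lacking them responds to ultraviolet B light. The labels name no strain, UVB dose or time between irradiation and sampling, and do not say whether the receptors are lost in all cells. No label says that the 4 libraries of a group come from separate animals, so the p-values below measure the spread between these libraries, which may be technical.

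Krtap genes are switched on late in the growing (anagen) follicle, in the cells of the hair cortex and cuticle that are about to harden into the shaft. Their products are linked to hair keratins and to each other by disulfide bonds between cysteines. They are sorted by composition into high sulfur, ultra high sulfur and high glycine-tyrosine proteins, and the genes are short, mostly without introns, and clustered on a few chromosomes. A resting follicle holds a finished club hair and makes little new shaft.

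The classes differ in coding sequence on average, with overlap between single members. By family number, 20 members were placed in the high sulfur class, 17 in the ultra high sulfur class (families 4, 5, 9 and 17), 16 in the high glycine-tyrosine class (families 6, 7, 8, 19, 20, 21 and 22) and 5 in no class (families 28, 29 and 31). Of the 58 members, 52 have a single exon. All 16 glycine-tyrosine genes lie on chromosome 16 beside 9 high sulfur genes. Chromosome 11 carries 12 ultra high sulfur and 8 high sulfur genes, and the 5 genes of family 5 are on chromosome 7. Over the 57 members with a coding sequence in GENCODE vM21, cysteine codons made up a median of 37.7% in the ultra high sulfur class, 20.15% in the high sulfur class and 8.05% in the glycine-tyrosine class. Glycine and tyrosine codons together made up a median of 63.3% in the glycine-tyrosine class, against 7.77% and 4.79% in the high and ultra high sulfur classes. Single members ranged from 27.2% to 41.5% cysteine codons in the ultra high sulfur, from 4.0% (Krtap15) to 30.6% in the high sulfur and from 0% to 16.7% in the glycine-tyrosine class. Krtap7-1 had the fewest glycine and tyrosine codons of its class, 29.9%, and Krtap28-10 and Krtap28-13, in no class, had 42.9% and 42.8% cysteine codons. Krtap16-3 carries a high sulfur family number but has 59.3% glycine and tyrosine codons and 8.14% cysteine codons, and it was left in the class of its number.

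Stretches of 30 codons of the mouse reference sequence (GRCm38, GENCODE vM21, coding strand) are given for the members on which the results below turn. Krtap4-1 is at chr11:99627224-99628238, Krtap17-1 at chr11:99993234-99993994, Krtap3-1 at chr11:99566027-99566630, Krtap3-2 at chr11:99555823-99556853 and Krtap8-1 at chr16:89487379-89487952, all on the minus strand and each a single exon. Capitals mark cysteine codons in the sequences of families 3, 4 and 17, and glycine or tyrosine codons in that of Krtap8-1.
Krtap4-1, codons 99 to 128: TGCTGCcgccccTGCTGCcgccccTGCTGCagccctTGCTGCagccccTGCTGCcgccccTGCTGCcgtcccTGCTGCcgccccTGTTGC
Krtap17-1, codons 10 to 39: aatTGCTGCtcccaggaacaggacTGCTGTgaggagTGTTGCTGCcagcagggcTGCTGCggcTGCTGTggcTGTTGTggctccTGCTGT
Krtap3-1, codons 2 to 31: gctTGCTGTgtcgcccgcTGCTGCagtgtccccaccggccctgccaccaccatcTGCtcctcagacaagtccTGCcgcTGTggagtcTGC
Krtap3-2, codons 2 to 31: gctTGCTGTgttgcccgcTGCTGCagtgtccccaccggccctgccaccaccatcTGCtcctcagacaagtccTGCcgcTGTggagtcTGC
Krtap8-1, codons 17 to 46: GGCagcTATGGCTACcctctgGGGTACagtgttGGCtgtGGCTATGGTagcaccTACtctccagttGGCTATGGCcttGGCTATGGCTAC
The Krtap4-1 stretch holds 16 cysteine codons, all in pairs, and the Krtap17-1 stretch holds 15. The Krtap3-1 and Krtap3-2 stretches hold 8 each, and they differ at 1 of 90 bases, C12T, counted from 1 at the 5′ end of the stretch with the Krtap3-1 base first. The Krtap8-1 stretch holds 18 glycine or tyrosine codons.

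Such likeness limits how well reads can be given to single members, since only reads with a unique place in the genome were counted. Of the 57 members with a coding sequence, 41 share at least 1 stretch of 50 bases with another annotated transcript, and 25 share over 10% of their length. The share was 28.9% for Krtap3-2, 41.3% for Krtap3-3 and 8.83% for Krtap3-1, all of it within family 3, and 0% for Krtap7-1, Krtap8-1, Krtap11-1 and Krtap17-1. It was highest in the ultra high sulfur members Krtap4-13 (81.3%) and Krtap5-1 (60.4%), whose counts are uncertain for that reason. Reads on the opposite strand of the members came to 125 against 50507 on the sense strand, which is 0.247%. Krtap10-10, Krtap12-1 and Krtap15 overlap another gene on their own strand.

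Upstream sequences were read because most members moved together. RefSeq promoters (GRCm38.p6) were found for 51 of the 58 members. The 27025 promoters searched were the first listed of each gene, without those of a chromosome that carries no Krtap gene. Within 250 bases before the start, the letters TATAAA stood on either strand in 80.4% of the Krtap promoters (41 of 51) and in 13% of these 27025 promoters. On the coding strand, between 40 and 16 bases before the start, they stood in 60.8% (31 of 51) and in 2.22%. CTTTGAA, the letters bound by LEF1 and TCF factors, stood on either strand in 13.7% against 4.64%, TTTATNG, which Hox13 factors bind and which can overlap a TATAAA box on the other strand, in 15.7% against 10.2%, and GACGC, the core bound by FOXN1, in 5.88% against 22.6%. These are matches of letters and do not show that a factor binds. The 120 bases before the start are given for 4 members, with TATAAA in capitals: Krtap8-1 (chr16:89487953-89488072), Krtap17-1 (chr11:99993995-99994114), Krtap3-1 (chr11:99566631-99566750) and Krtap3-2 (chr11:99556854-99556973), all on the minus strand.
Krtap8-1 promoter: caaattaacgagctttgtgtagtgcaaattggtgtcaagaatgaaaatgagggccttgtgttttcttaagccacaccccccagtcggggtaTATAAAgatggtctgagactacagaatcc
Krtap17-1 promoter: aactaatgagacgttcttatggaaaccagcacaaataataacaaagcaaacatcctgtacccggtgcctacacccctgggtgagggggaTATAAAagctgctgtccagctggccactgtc
Krtap3-1 promoter: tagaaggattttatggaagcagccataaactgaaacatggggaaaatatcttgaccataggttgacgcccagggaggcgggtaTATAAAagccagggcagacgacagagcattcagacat
Krtap3-2 promoter: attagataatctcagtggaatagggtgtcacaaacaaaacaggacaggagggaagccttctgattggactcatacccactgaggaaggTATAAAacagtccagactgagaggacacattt
Krtap3-2, whose RNA did not follow that of the other members, carries the box as well. Whether any of these letters bears on the RNA levels was not tested.

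The libraries held between 15644375 and 23200649 reads in genes. Both targeted genes were lower in KO skin without being absent: Tnfrsf1a had a log2 fold change of -0.74 ± 0.07 (SE; edgeR adjusted p = 5.43e-05) and Tnfrsf1b one of -1.47 ± 0.21 (edgeR adjusted p = 0.00206) without UVB. For the Krtap genes 1 library stood apart. Library 2 of the irradiated WT skin held 1271 Krtap reads where the other 3 of its group held between 383 and 497, and it was the highest of its group for 51 of the 53 members with a read there. It weighs on every comparison with irradiated WT skin, and the values without it are given with those comparisons. All 24 pairs of libraries within groups differed by more than counting noise, so none was counted as a repeat.

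In WT skin without UVB, the mean class sum was 193 CPM for glycine-tyrosine genes, 194 CPM for high sulfur genes (168 without Krtap3-2) and 108 CPM for ultra high sulfur genes. Levels are in CPM, the reads of a gene relative to all reads in genes, scaled between libraries by the trimmed mean of M-values. The summed level of the 57 members other than Krtap3-2 was 477, 801, 279 and 366 CPM in the 4 libraries (mean 481 ± 228, SD). Library 2 was the highest for 49 of these 57 members, so the spread of most members within WT skin was shared. Per kilobase of exon, Krtap8-1 (79.9 CPM per kb) and Krtap7-1 (71.8 CPM per kb) had the highest mean levels. Krtap15 (29.6), Krtap22-2 (28), Krtap3-1 (27.7), Krtap3-2 (25.3), Krtap6-5 (24.5) and Krtap1-5 (22 CPM per kb) came next, within the spread of the libraries of each other. Krtap3-2 was left out of the sums after its values had been seen, for the reason given with that gene, and the folds of the total sum are given with and without it.

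**Figure D1:**
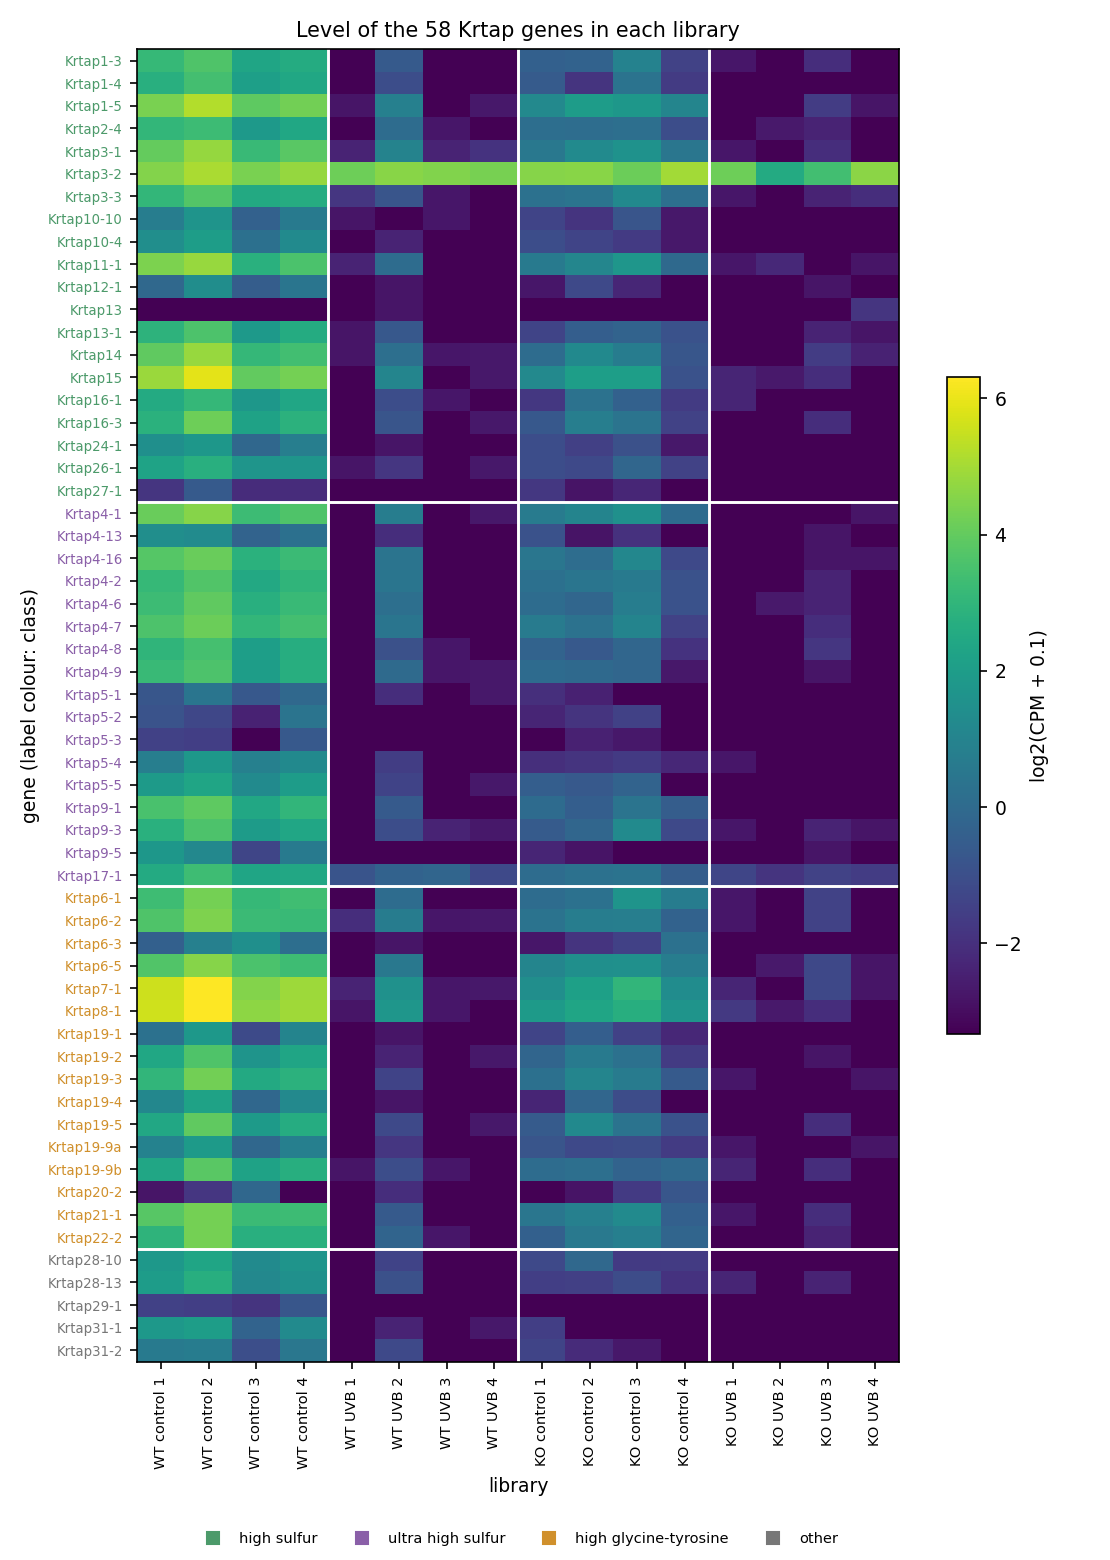
Level of each of the 58 Krtap genes (rows, label colour by class) in each of the 16 libraries (columns), as log2(CPM + 0.1). Most genes are highest in WT skin without UVB, lower in KO skin without UVB and near 0 CPM in irradiated skin but for WT UVB library 2, while Krtap3-2 is between 5.88 and 33.7 CPM in every library.

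After UVB, Krtap RNA of WT skin other than that of Krtap3-2 was close to the limit of counting in all libraries but library 2. The sum without Krtap3-2 was 1.38, 35.9, 1.55 and 1.33 CPM (mean 10 ± 17.2, SD, n = 4), 47.9-fold below the WT mean without UVB. No irradiated WT library overlapped the libraries without UVB. Library 2 held 89.4% of the group's summed level, and without it the mean was 1.42 CPM and the difference 339-fold. With Krtap3-2 in the sum the difference was 16.2-fold. In a bulk library, fewer cells that make the shaft and less Krtap RNA per cell cannot be told apart.

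Across the members this was a fall in almost every gene tested. The test was edgeR's quasi-likelihood test over 17531 genes in 1 model of the 4 groups, with Benjamini-Hochberg adjustment over all of them and a threshold of 0.05. It covered 50 of the 58 members, the other 8 having too few reads. Because the read filter took all groups together, members could enter through skin without UVB, where they were high. That favours calls of a fall, so the counts below rest in part on the filter. In WT skin 49 of the 50 fell after UVB and none rose (Krtap3-2 did not pass). Over all genes tested, 8.60% fell and 10.2% rose. The median log2 fold change of the 50 members was -5.62, and it was the same with members of 3 or fewer reads set to their bound or ratio, against -0.0273 over all genes. Without irradiated WT library 2 the test called 51 of 52 members lower. Counting the members that were not tested, 54 of 58 had every irradiated WT library below every WT library without UVB, where 13.1% of all genes tested did. By class 15 of 15 glycine-tyrosine, 17 of 18 high sulfur, 14 of 14 ultra high sulfur and 3 of 3 other members fell, with medians of -5.89, -5.75, -5.22 and -5.42; differences between classes were not tested.

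**Figure D2:**
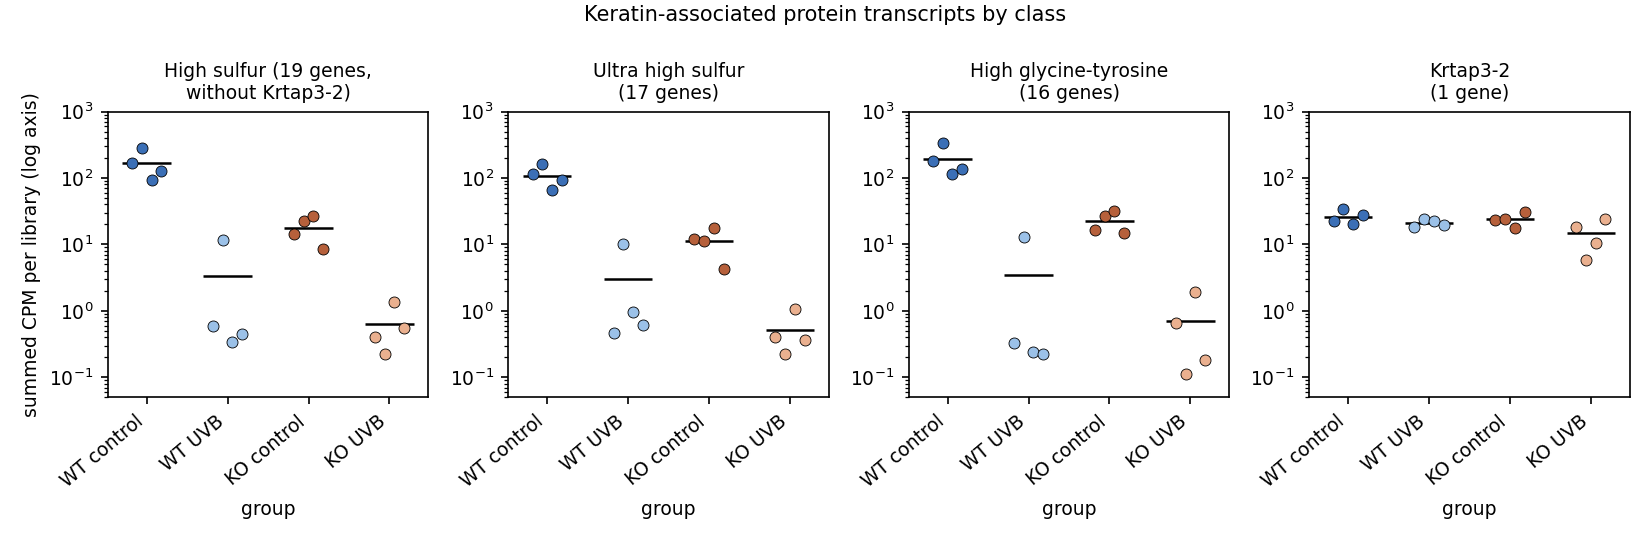
Summed CPM of each Krtap class without Krtap3-2, and CPM of Krtap3-2 alone, in each library (points) of the 4 groups, on a log axis with the group mean as a line. The classes drop together from WT to KO skin without UVB and to irradiated skin, with WT UVB library 2 above its group, while Krtap3-2 stays between 5.88 and 33.7 CPM in all 16 libraries.

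The size of these falls rests on irradiated WT library 2. As a ratio of reads relative to library size, the median over the 50 tested members was -5.60 on the log2 scale with it and -7.57 without it, with members at 0 set to the floor of 3 reads. In the other 3 libraries 22 of the 50 had no read, 22 had 1 to 3 and 6 had more. Without library 2, Krtap8-1 had 2 reads left of 3621, a ratio of 1304 (95% exact interval 361 to 10775), Krtap15 had 1 of 2420 (1743, 313 to 68891), Krtap1-5 had 2 of 1829 (659, 182 to 5444) and Krtap4-1 had 1 of 1263 (910, 163 to 35968). Krtap7-1 had 4 of 3514 (633, 247 to 2324) and Krtap3-1 had 7 of 1331 (137, 66.3 to 341). Krtap19-3, Krtap21-1 and Krtap9-1 had none and were at least 187-fold, 254-fold and 192-fold lower. Krtap17-1 kept 32 reads against 524 (11.8, 8.25 to 17.4). The fitted changes given below for single members hold all 4 libraries.

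Among glycine-tyrosine genes, which encode small matrix proteins of the cortex, Krtap8-1 (ENSMUSG00000059632.5) had 48.5, 79.2, 25.3 and 30.4 CPM in WT skin without UVB. After UVB it had 0.0461, 3.27, 0.0485 and 0 CPM. The groups did not overlap, and the only irradiated library with more than a trace was library 2. The log2 fold change was -5.72 ± 0.82 (SE; edgeR adjusted p = 0.000283). Krtap7-1 (ENSMUSG00000056706.4) went from 47.8, 78.0, 22.6 and 29.9 CPM to 0.0923, 2.85, 0.0485 and 0.0556 CPM, again without overlap (-5.83 ± 0.82, edgeR adjusted p = 0.000256). The largest fitted falls in this comparison were those of Krtap19-3 (-6.96 ± 0.72, edgeR adjusted p = 2.02e-05), which went from 777 reads over the group to 6, and Krtap21-1 (-6.42 ± 0.71, edgeR adjusted p = 3.44e-05), which went from 1059 to 12. The reads left were all in library 2. Krtap6-5 (-5.39 ± 0.78), Krtap6-2 (-4.81 ± 0.70), Krtap22-2 (-5.57 ± 0.74) and Krtap19-9b (-5.89 ± 0.63) fell as well. Krtap19-2, picked after its values were seen, had 498 reads before and 3 after UVB, a ratio of 161 (95% exact interval 54.9 to 785, counting error only).

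High sulfur genes, whose products fill the cortex and cuticle, fell by similar amounts. Krtap15 had 29.0, 60.3, 15.9 and 19.5 CPM without UVB and 0, 1.99, 0 and 0.0556 CPM after it (-5.88 ± 0.90, edgeR adjusted p = 0.000447). Krtap1-5 (ENSMUSG00000047253.5) had 20.8, 36.8, 15.1 and 19 CPM and then 0.0461, 1.71, 0 and 0.0556 CPM (-5.61 ± 0.74, edgeR adjusted p = 0.000127). In both genes every irradiated library lay below every library without UVB, and library 2 carried nearly all that was left. Krtap11-1 (-5.95 ± 0.75), Krtap14 (-5.65 ± 0.74), Krtap16-3 (-6.02 ± 0.80), Krtap13-1 (-5.58 ± 0.68), Krtap26-1 (-5.79 ± 0.55) and Krtap2-4 (-4.67 ± 0.73) also fell. For Krtap10-4, Krtap12-1 and Krtap24-1, each called lower, 3 or fewer reads were left over the irradiated WT group. The ratio of reads was 97.7 for Krtap10-4 (95% exact interval 26.7 to 812), 99.2 for Krtap12-1 (17.4 to 3955) and 164 for Krtap24-1 (29.1 to 6528).

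Ultra high sulfur genes, with a median of 37.7% cysteine codons, fell too. Krtap4-1 had 17.2, 23.5, 9.61 and 12.5 CPM without UVB and 0, 1.61, 0 and 0.0556 CPM after it (-5.18 ± 0.75, edgeR adjusted p = 0.000284). The groups did not overlap. Krtap9-1 (-6.03 ± 0.74) and the family 4 members Krtap4-16 (-5.24 ± 0.79), Krtap4-6 (-5.21 ± 0.76), Krtap4-7 (-5.24 ± 0.81) and Krtap4-8 (-5.83 ± 0.72) fell, as did Krtap5-5 (-5.35 ± 0.78) and Krtap5-4 (-5.07 ± 0.62) of family 5. Krtap9-5, which was not tested and was picked after its values were seen, had 149 reads over the WT libraries without UVB and 0 after UVB, at least 48.3-fold lower against a floor of 3 reads over the group. Of the 5 members outside the classes, Krtap28-10 (-5.42 ± 0.74) and Krtap28-13 (-5.02 ± 0.72) fell. Krtap31-1 was called lower with 212 reads before and 3 after UVB, a ratio of 68.7 (95% exact interval 23.2 to 336). Krtap31-2, which was not tested, had 95 and then 7 reads, and Krtap29-1, also not tested, was at least 8.1-fold lower (25 reads against 0).

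**Figure D3:**
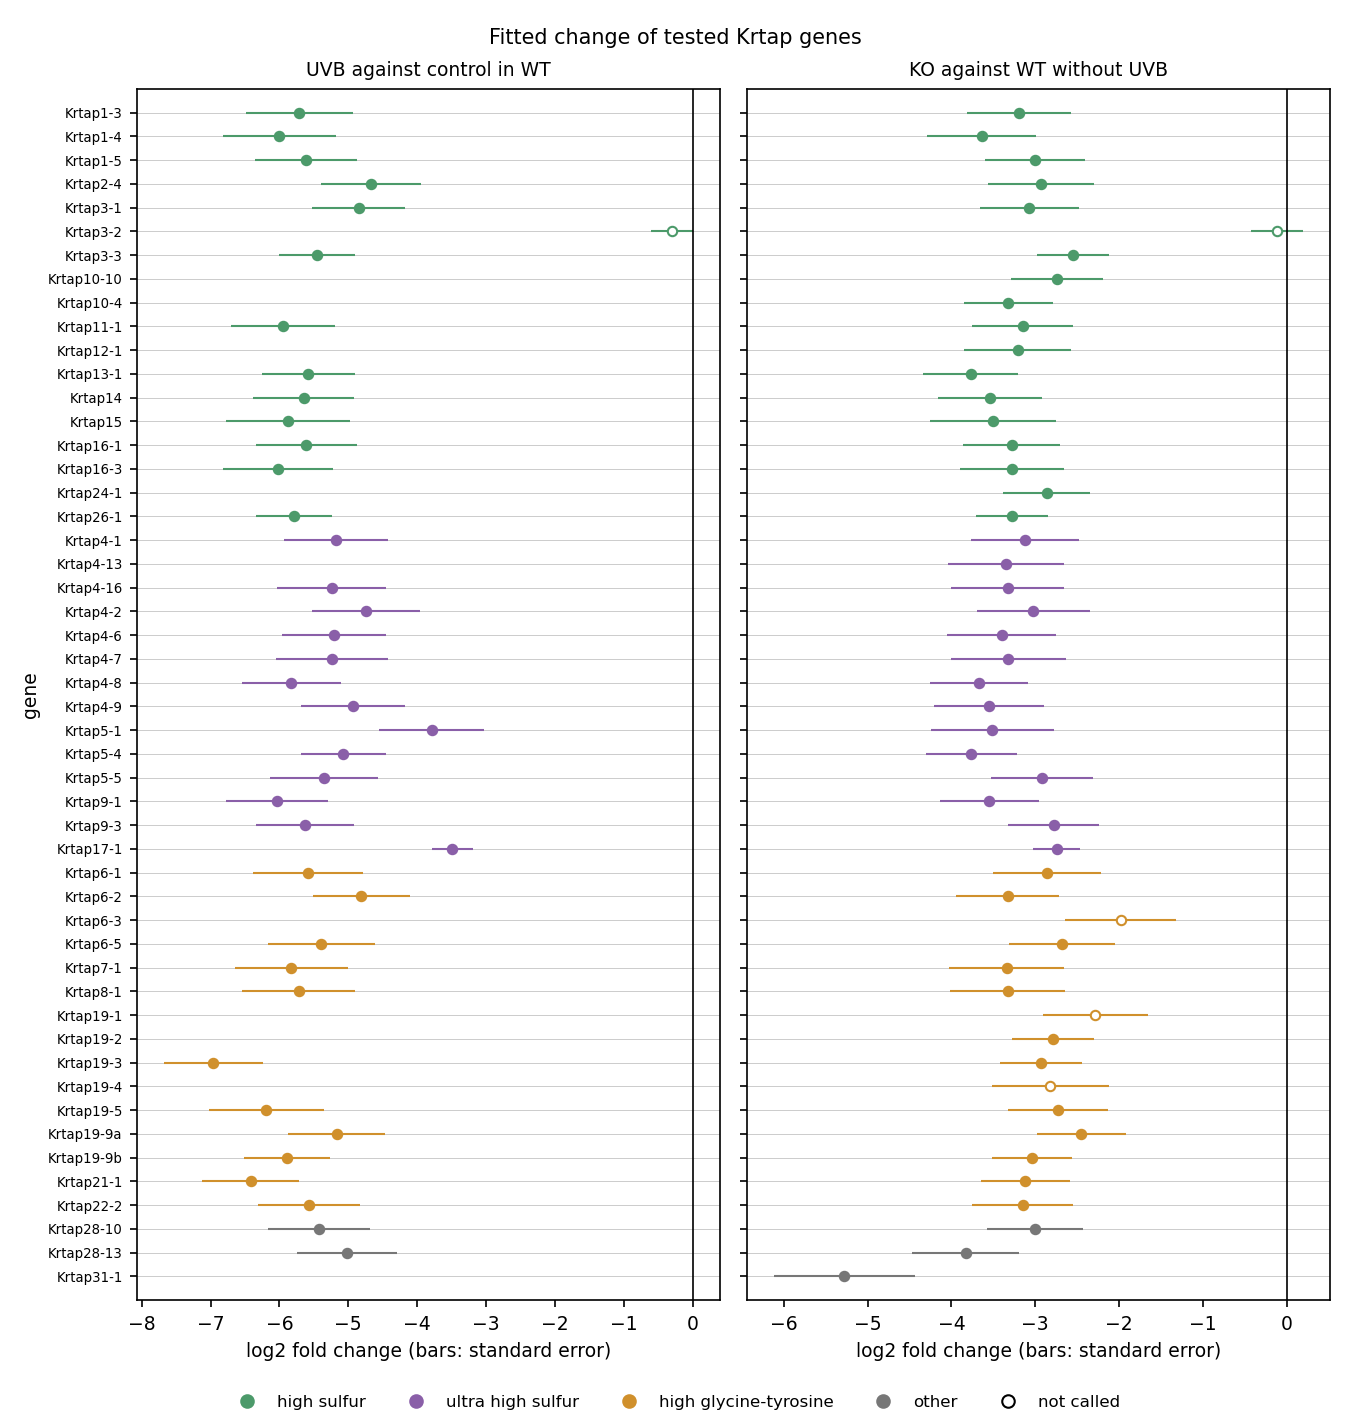
Log2 fold change with its standard error for tested Krtap genes with more than 3 reads in both groups: UVB against no UVB in WT skin, and KO against WT skin without UVB. Filled points passed the adjusted threshold of 0.05 and open points did not; every fitted value is below 0, and Krtap3-2 is nearest to 0 in both.

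Krtap3-2 (ENSMUSG00000069721.3), a high sulfur gene, was the member that did not go with the rest. It had 22.6, 33.7, 20.6 and 27.6 CPM in WT skin without UVB and 18, 24.4, 22.5 and 19.9 CPM after UVB. In KO skin it had 23.3, 24.4, 17.8 and 31.2 CPM without UVB and 18.2, 5.88, 10.5 and 24.5 CPM after it. All 4 groups overlapped. The log2 fold change with UVB was -0.30 ± 0.31 in WT skin (edgeR adjusted p = 0.537) and -0.71 ± 0.31 in KO skin (edgeR adjusted p = 0.0979), and that of KO against WT was -0.11 ± 0.31 without UVB (edgeR adjusted p = 0.956) and -0.52 ± 0.31 with it (edgeR adjusted p = 0.432). The UVB difference in KO skin passed with limma's voom and quality weights (-1.33, adjusted p = 0.00371) and when KO UVB library 4 was left out (-1.04, edgeR adjusted p = 0.0156), and so did KO against WT after UVB with voom (-1.28, adjusted p = 0.0253).

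The contrast with its neighbours in family 3 was plain. Krtap3-1 (ENSMUSG00000047564.5), which differs from it by C12T in the stretch printed above, had 16.2, 27.5, 9.13 and 14.2 CPM in WT skin without UVB and 0.0923, 1.90, 0.0969 and 0.167 CPM after UVB. It fell by 4.85 ± 0.67 on the log2 scale (edgeR adjusted p = 0.000194). Krtap3-3, named here as the third gene of that family, fell by 5.45 ± 0.55 (edgeR adjusted p = 1.64e-05). Krtap3-2 made up between 4.03% and 7.03% of all Krtap reads in WT skin without UVB, 18.8% to 52.7% in KO skin without UVB, 40.5% to 93.7% in irradiated WT skin and 70.5% to 95.7% in irradiated KO skin. Any sum that holds it therefore has a floor set by this 1 gene. The counts do not show which part of the gene its reads cover.

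Krtap17-1 (ENSMUSG00000078252.2), an ultra high sulfur gene that stands alone in its family and shares no stretch of 50 bases with another transcript, had the smallest fitted fall with UVB in WT skin apart from Krtap3-2, which did not pass. In WT skin it had 5.81, 10, 4.94 and 5.33 CPM without UVB and 0.461, 0.711, 0.775 and 0.333 CPM after it. In KO skin it had 0.972, 1.10, 1.17 and 0.610 CPM without UVB and 0.299, 0.171, 0.277 and 0.228 CPM after it. The libraries did not overlap between genotypes under either treatment or between treatments in either genotype, and irradiated WT library 2 lay within the range of its group. The fall with UVB was 3.49 ± 0.30 on the log2 scale in WT skin (edgeR adjusted p = 5.81e-06) and 1.95 ± 0.36 in KO skin (edgeR adjusted p = 0.00115). The difference between these falls was 1.53 ± 0.50 and did not pass (edgeR adjusted p = 0.237, unadjusted p = 0.00747).

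In KO skin, UVB was again followed by a loss of nearly all Krtap RNA other than that of Krtap3-2, from a lower start. The sum without Krtap3-2 was 44.1, 61.5, 76.6 and 28.1 CPM without UVB and 1.54, 0.571, 4.39 and 1.09 CPM after it (means 52.6 ± 21 and 1.90 ± 1.71, SD), a difference of 27.7-fold without overlap, or 4.6-fold with Krtap3-2 in the sum. KO UVB library 3 was the highest of its group, and without it the difference was 49.3-fold and the median of the fitted changes of tested members -5.62. Of the 50 tested members 44 fell and none rose, where 15.1% of all genes tested fell and 17.2% rose. Those that did not pass were Krtap3-2, Krtap4-13, Krtap5-1, Krtap12-1, Krtap28-13 and Krtap31-1. The read filter ran over all groups together, so members with few reads in KO skin could enter through WT skin. Of the 50 tested members, 19 had more than 3 reads left over the irradiated KO libraries. By class 15 of 15 glycine-tyrosine, 16 of 18 high sulfur, 12 of 14 ultra high sulfur and 1 of 3 other members fell. The median of the fitted log2 fold changes was -4.80, and -4.07 with members of 3 or fewer reads at their bound or ratio, against -0.0156 over all genes. Groups did not overlap for 42 of 58 members, where 11.5% of all genes tested were lower without overlap.

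Reads were scarce behind these values. Over the 4 irradiated KO libraries 19 members had no read and 38 had 3 or fewer. Krtap8-1 had 3.69, 4.92, 6.5 and 3.05 CPM in KO skin without UVB and 0.199, 0.0571, 0.138 and 0 CPM after it (-5.44 ± 1.16, edgeR adjusted p = 0.00287). Krtap7-1 (-5.09 ± 1.11, edgeR adjusted p = 0.00329), Krtap1-5 (-5.16 ± 1.02, edgeR adjusted p = 0.00169) and Krtap21-1 (-4.78 ± 0.93, edgeR adjusted p = 0.00157) fell to a similar degree, and each fell to 10 reads or fewer over the group. Krtap4-1, called lower, had 146 reads without UVB and 1 after it, a ratio of 146 (95% exact interval 25.9 to 5824). Krtap9-1 and Krtap26-1, both called lower, had no read left, which makes them at least 22.7-fold and 12-fold lower.

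Without UVB, Krtap RNA was already lower in KO than in WT skin. The sums of 44.1, 61.5, 76.6 and 28.1 CPM in KO skin lay below all 4 WT values (279 to 801 CPM), 9.14-fold lower in the mean, or 6.6-fold with Krtap3-2. By class the difference was 9.38-fold for high sulfur genes without Krtap3-2 (4.61-fold with it), 9.61-fold for ultra high sulfur genes, 8.56-fold for glycine-tyrosine genes and 13.4-fold for the others. Of the 50 tested members 46 were lower in KO skin and none higher, where 1.28% of all genes tested were lower and 0.416% higher. Here too, members could pass the read filter through WT skin without UVB, where most were highest. That favours calls of a lower level in KO skin, so the count rests in part on the filter. The median log2 fold change was -3.15, against 0.0021 over all genes. Groups did not overlap for 50 of 58 members, where 4.63% of all genes tested were lower without overlap. Besides Krtap3-2, the members that did not pass were glycine-tyrosine genes: Krtap6-3 (-1.98, edgeR adjusted p = 0.229), Krtap19-1 (-2.28, edgeR adjusted p = 0.125) and Krtap19-4 (-2.82, edgeR adjusted p = 0.0722).

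The smallest adjusted p-values of this comparison were spread over all 3 classes. Krtap17-1 had a log2 fold change of -2.74 ± 0.28 (edgeR adjusted p = 9.45e-05) and Krtap5-4 one of -3.76 ± 0.54 (edgeR adjusted p = 0.00204). Krtap26-1 had a log2 fold change of -3.28 ± 0.43 (edgeR adjusted p = 0.00216) and Krtap13-1 one of -3.77 ± 0.57 (edgeR adjusted p = 0.00287). For Krtap19-9b it was -3.04 ± 0.48 (edgeR adjusted p = 0.00373) and for Krtap4-8 -3.67 ± 0.58 (edgeR adjusted p = 0.00378). The most abundant members had larger standard errors: the values were -3.33 ± 0.69 for Krtap8-1 (edgeR adjusted p = 0.0211) and -3.34 ± 0.69 for Krtap7-1 (edgeR adjusted p = 0.0204). Krtap31-1, of a family outside the classes, had the lowest value. It had 3.44, 4.03, 0.743 and 2.37 CPM in WT skin and 0.243, 0, 0 and 0 CPM in KO skin, without overlap (-5.28 ± 0.84, edgeR adjusted p = 0.00668); KO library 1 held all 5 of the KO reads.

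The number of members that passed here depended on single libraries. Leaving out 1 library at a time left between 20 and 48 members called lower: 20 without WT library 2, 23 without KO library 4, 28 without WT library 1 or KO library 1, and 30 without KO library 2. Of the 32 members named by rule and called here, 14 passed in every one of these 8 fits, among them Krtap17-1, Krtap5-4, Krtap26-1, Krtap13-1, Krtap19-9b, Krtap4-8, Krtap19-3, Krtap21-1, Krtap9-1 and Krtap31-1. The first 6 of these were named for the smallest adjusted p in this comparison, so their passing follows in part from that choice. Krtap8-1 passed in 2 of 8 and Krtap6-5 in 0 of 8, with adjusted p up to 0.0892 and 0.15 and log2 fold changes between -3.55 and -2.93 and between -2.82 and -2.35. With DESeq2 in place of edgeR, 29 members passed. The shares of all genes called in these fits are not given here. The counts therefore do not tell a loss of calls among all genes from one among the members.

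The makeup of the Krtap pool without Krtap3-2 was compared between WT and KO skin without UVB, with no test. High sulfur genes without Krtap3-2 made up 33.0% to 35.6% of the other members' reads in WT and 30% to 36.6% in KO skin. Glycine-tyrosine genes made up 37.6% to 42.0% and 37.9% to 53.2%, and ultra high sulfur genes 20.3% to 25.2% and 15.4% to 27.2%. The ranges overlapped in each of these 3 classes, and KO library 4 was the highest for glycine-tyrosine and the lowest for ultra high sulfur genes. Irradiated WT library 2, with 756 reads outside Krtap3-2, had 32.8% high sulfur, 28.2% ultra high sulfur and 35.8% glycine-tyrosine reads, the latter 2 outside the range of the 8 libraries without UVB. The other irradiated libraries held between 10 and 95 such reads, too few for shares by class.

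**Figure D4:**
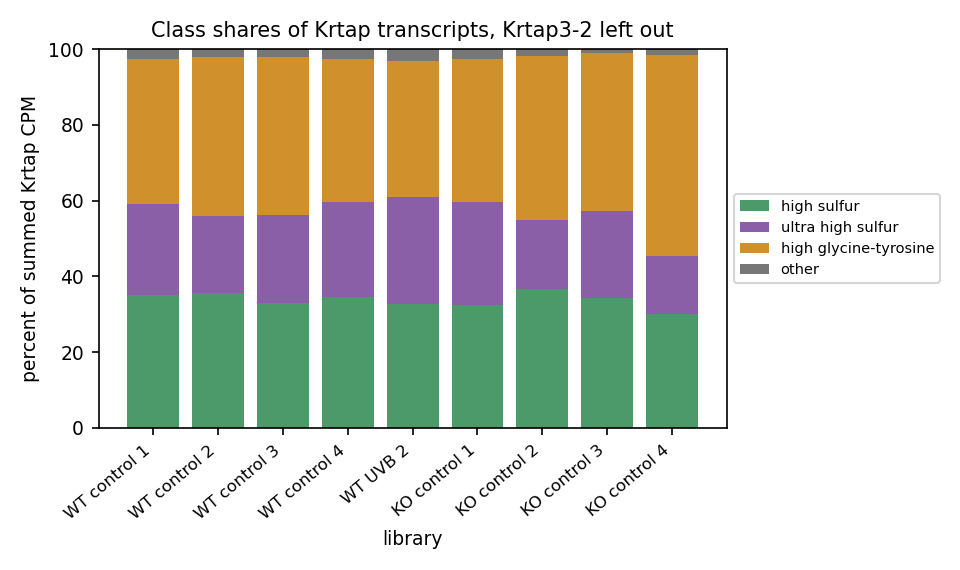
Share of Krtap reads (percent, without Krtap3-2) by class in the 4 WT libraries without UVB, WT UVB library 2 and the 4 KO libraries without UVB. Glycine-tyrosine shares run from 35.8% (WT UVB library 2) to 53.2% (KO control library 4), and ultra high sulfur shares from 15.4% (KO control library 4) to 28.2% (WT UVB library 2).

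A few low members were out of step with their classes, and they are named for that reason, after their values were seen. Krtap6-3 and Krtap20-2, both glycine-tyrosine genes, were highest in WT library 3 and KO library 4, where most members were not. Krtap6-3 had 0.670, 1.74, 2.67 and 1.03 CPM in WT and 0.0486, 0.170, 0.266 and 1.11 CPM in KO skin without UVB, and the groups overlapped. Krtap20-2 had 23 reads over the WT and 14 over the KO libraries. At the other end Krtap9-5 had 149 reads in WT and 3 in KO skin without UVB, a ratio of 48.0 (95% exact interval 16.1 to 236), and Krtap29-1 had 25 and 0, at least 8.06-fold lower. Krtap13 had 5 reads in all 16 libraries together, none of them in skin without UVB.

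After UVB, no member differed between KO and WT skin by the test. No member of 50 was called in either direction with edgeR, 8 had an unadjusted p under 0.05, DESeq2 called 0 and voom 1, Krtap3-2, while edgeR called 0.856% of all genes tested in either direction. For the unadjusted counts in this paragraph the share over all genes is not given, so they have no background here. The median of the fitted log2 fold changes was -1.90, and -1.82 over the 40 members with a value when those of 3 or fewer reads were set to their bound or ratio. Without irradiated WT library 2 the median was 0.61, so its sign rests on that library. Krtap17-1 was the only member without overlap, lower in KO at a log2 fold change of -1.21 ± 0.39 (edgeR adjusted p = 0.138), where 3.89% of all genes tested were lower without overlap. The change of the UVB effect with genotype was called for no member either (1 at an unadjusted p under 0.05, 0 with DESeq2 and 0 with voom), where 0.0228% of all genes tested were called. Its median was 0.99, and 3.69 without irradiated WT library 2. Without that library, 22 of the 50 tested members had no read in irradiated WT skin and 22 had 1 to 3. The medians of 0.61 and 3.69 therefore come from fits to counts near 0 and do not give the size of a difference. Of the 58 members, 16 had 3 or fewer reads in both irradiated groups. For Krtap4-1 the groups had 35 and 1 reads, a ratio of 34.9 (95% exact interval 5.87 to 1419) for counting error only, and all but 1 of the WT reads came from library 2.

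The keratins to which Krtap proteins are bound moved with them. Of a list of 16 hair shaft keratins, written with earlier results known, 15 were measured, and 15, 12 and 13 of these were lower after UVB in WT skin, after UVB in KO skin and in KO against WT skin without UVB, with medians of -5.42, -4.23 and -3.03. Their summed level was 319, 413, 150 and 192 CPM in WT and 28.8, 39.5, 57.5 and 22.5 CPM in KO skin without UVB, and 5.31, 21.9, 5.91 and 5.94 CPM in irradiated WT and 3.59 to 5.33 CPM in irradiated KO skin. The Krtap sum without Krtap3-2 was 1.5 to 1.94 times the keratin sum in WT and 1.25 to 1.56 times in KO skin without UVB. It was 0.224 to 0.262 times in 3 irradiated WT libraries, 1.64 times in library 2 and 0.159 to 0.848 times in irradiated KO skin. Krt32 kept a mean of 3.61 CPM in irradiated WT and 2.02 CPM in irradiated KO skin, so the keratin sum has a floor there. Krtap3-2 was left out of the Krtap sum, and the low ratios do not show that Krtap genes fell further than most keratins. Relative to the keratins, the Krtap sum was 1.27-fold lower in KO than in WT skin without UVB. Krt35, a keratin of the early shaft, fell by 5.02 ± 0.61 with UVB in WT skin (edgeR adjusted p = 7.15e-05).

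**Figure D5:**
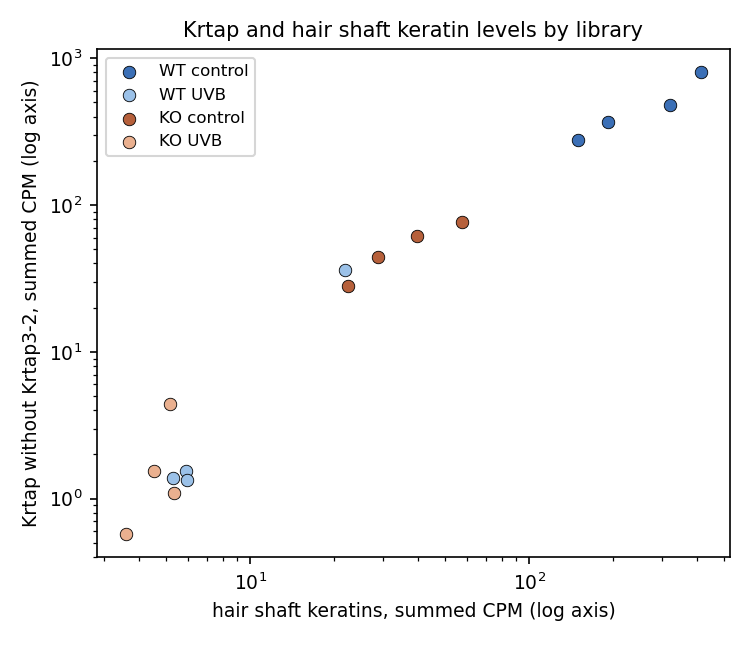
Summed CPM of the Krtap genes without Krtap3-2 against summed CPM of the hair shaft keratins in each library, both on log axes, coloured by group. In WT and KO libraries without UVB and in WT UVB library 2 the Krtap sum is 1.25 to 1.94 times the keratin sum, while the other irradiated libraries, with keratin sums of 3.59 to 5.94 CPM, have ratios of 0.159 to 0.848. The keratin sums hold Krt32, at 2.5 to 4.7 CPM in irradiated WT and 1.31 to 3.32 CPM in irradiated KO skin.

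Other hair and skin lists are set against the shares of all genes: 8.60% fell and 10.2% rose with UVB in WT skin, 15.1% and 17.2% in KO skin, and 1.28% were lower in KO without UVB. All 9 inner root sheath genes, which mark the sheath around the growing shaft, fell with UVB in WT skin, 8 in KO skin, and 5 were lower in KO without UVB; their sum was 1143 to 2882 CPM in WT and 74.2 to 298 CPM in KO skin without UVB. Of 12 matrix regulators, 7 fell and 2 rose with UVB in WT skin, 6 fell and 2 rose in KO skin, and 2 were lower in KO skin without UVB: Hoxc13, a homeobox factor of hair keratin genes (-1.02, edgeR adjusted p = 0.00633), and Msx2 (-1.31, edgeR adjusted p = 0.0312). Foxn1 (-0.64, edgeR adjusted p = 0.148) and Lef1 (-0.93, edgeR adjusted p = 0.0952) did not pass there. Of 7 crosslinking and cuticle genes, 4 were lower in KO skin without UVB, among them Padi3 (-2.97 ± 0.48, edgeR adjusted p = 0.00429) and S100a3 (-2.76 ± 0.37, edgeR adjusted p = 0.00119). With UVB 4 of them fell and 2, the transglutaminases Tgm1 and Tgm3, rose in each genotype. Of 8 stem cell genes of the follicle 1 fell with UVB in WT skin, 5 fell in KO skin and 0 passed between KO and WT skin without UVB. Among 6 tested pigment cell genes 0 passed in these 3 comparisons. The 7 cornified layer genes all rose with UVB in both genotypes, and 5 of 6 proliferation genes rose in WT and 6 in KO skin. Of 5 skeletal muscle genes 1 fell with UVB in WT skin and 4 fell in KO skin, where their mean sum was 19193 CPM without and 9836 CPM with UVB, and 0 passed between KO and WT skin without UVB. None of 5 adipocyte genes passed in these 3 comparisons. Of 5 sebaceous gland genes 2 rose in WT skin, 3 rose and 1 fell in KO skin, and 0 passed between KO and WT skin without UVB. The part of the hair cycle phase, of the cell makeup of the samples and of these lists in the Krtap differences was not tested, and the label telogen stands beside Krtap sums of 279 to 801 CPM in WT skin without UVB.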

How the data were processed

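Poly(A) RNA of whole dorsal skin was sequenced from directional libraries (per the labels' protocols), and the authors deposited raw read counts per gene for each of the 16 libraries, made with STAR on GRCm39 per the submitters' processing notes; their versions and the annotation are unknown here. The reverse-strand counts (column 4) were used, since they held 94.75% to 96.09% of the reads of both strands. Lines that name no gene were left out: unmapped reads came to 10.7% to 19.5%, reads in no feature to 7.25% to 10.2%, and reads in more than 1 feature to 1.18% to 1.42% of each library. The deposited files list 0 multimapping reads. The 17 sample columns of a combined table were not used. Symbols for 52083 of 55359 identifiers, exon lengths and coding sequences came from GENCODE vM21 (GRCm38), and promoters from RefSeq (GRCm38.p6); no coordinate was converted between builds.

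Counts were fitted with edgeR 4.0.16 in R 4.3.3 (filterByExpr, TMM factors 0.94 to 1.07, robust quasi-likelihood, 17531 genes, common biological coefficient of variation 0.18), in 1 model of 4 group means with 5 contrasts and no block. P-values were adjusted by the Benjamini-Hochberg method over all genes tested. The pipeline was also run on simulated data, in which every gene had the same spread and no library stood apart. That run therefore does not bear on the calls of the Krtap members. Members with 0 reads in a group are given against a floor of 3 reads over the group, and those with 1 to 3 reads as a ratio with an exact 95% interval, for counting error only, since the reads have no molecular identifiers. Standard errors of edgeR changes were derived as the absolute log2 fold change over the square root of the test's F statistic. They restate the test as a width and are not separate estimates of the model. Sums are of CPM and have no test.

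Alternatives were DESeq2 1.42.0, limma 3.58.1 voom with quality weights, other scalings and filters, unstranded counts, only the groups compared, a hair keratin covariate, a replicate block and leaving out each library. Leaving out libraries 2 of both WT groups together, and Krtap3-2 from the sums, was chosen after seeing the data. Named members were the 5 highest by mean CPM of each class, the highest of each family with a tested member, the 6 with the smallest adjusted p between KO and WT skin without UVB (more than 12 being called), and in each UVB comparison the 3 with the largest change and a mean of at least 50 reads; members outside this rule are said to be so, or are the few that did not pass. The members, gene lists and tests were chosen with earlier results of these data known.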

Additional observations from a re-analysis of the deposited data

Results flagged for a closer look

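In groups of 4 libraries, a library was taken as standing apart when its gap to the nearest other exceeded Dixon's 95% limit as a share of the group's range. Of 61 groups examined 15 met this, and most concern 1 library, so they are not separate events. Chance gives about 5% for normally distributed values, which does not hold for counts near 0. A group with reads in only 1 library always meets the limit, as in the cases of Krtap6-3, Krtap20-2, Krtap31-1 and, in irradiated KO skin, Krtap4-1.

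Irradiated WT library 2 was the high one in 13 of them. Its summed Krtap level without Krtap3-2 was 35.9 CPM, with the other 3 between 1.33 and 1.55. By class it had 11.8 CPM of high sulfur genes without Krtap3-2 (others 0.339 to 0.6), 10.1 CPM of ultra high sulfur genes (others 0.461 to 0.969) and 12.9 CPM of glycine-tyrosine genes (others 0.222 to 0.323). Among single members it had 3.27 CPM of Krtap8-1, 2.85 of Krtap7-1, 1.99 of Krtap15, 1.71 of Krtap1-5 and 1.61 of Krtap4-1, with the others at 0.0923 or less. It was also the only irradiated WT library with reads of Krtap6-3 (0.0474 CPM) and Krtap20-2 (0.142 CPM). Its hair shaft keratins summed to 21.9 CPM (others 5.31 to 5.94), and its ratio of Krtap to hair shaft keratins was 1.64 (others 0.224 to 0.262).

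Of the remaining 2, KO UVB library 4 was the only one of its group with a read of Krtap4-1 (0.0455 CPM, 1 read). KO library 1 without UVB was the only one of its group with reads of Krtap31-1 (0.243 CPM, 5 reads).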

How the results depend on the processing

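The fall with UVB in WT skin covered 49 members and, over the 8 fits that each left out 1 library, 49 to 51. In KO skin it covered 44 and then 42 to 44, and KO against WT without UVB 46 and then 20 to 48. KO against WT with UVB and the change of the UVB effect with genotype stayed at 0 in each such fit, with voom calling 1 in the former. For UVB in KO skin, the fit of only the groups compared called 17 of 18 tested members, since fewer passed the read filter without the WT libraries. For KO against WT without UVB, DESeq2 called 29 and a fit with no filter beyond 1 read 30. With a mean of at least 100 reads only 5 members were tested, and 4 were called in each of the 3 comparisons. Shares of all genes called under each alternative are not given beside these counts. Folds of the summed level ranged from 37.1 to 339 (WT without over with UVB), 22.5 to 49.3 (KO without over with UVB) and 7.11 to 10.8 (WT over KO without UVB) when 1 library was left out. Without libraries 2 of both WT groups they were 263 for the first and 7.11 for the last, and 49, 45, 40, 0 and 0 members were called in the 5 comparisons. As a ratio to hair shaft keratins, WT over KO without UVB was 1.27-fold.

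A fit with log2 of the summed hair shaft keratins as covariate called 0 members for UVB in WT skin, 0 for UVB in KO skin and 0 for KO against WT without UVB. This covariate was 7.23 to 8.69 in WT and 4.49 to 5.85 in KO skin without UVB, 2.41 to 4.45 in irradiated WT and 1.85 to 2.41 in irradiated KO skin, so it separates the groups compared almost as the groups themselves do. Under it the log2 fold change was above 0 for 24 of 50 tested members with UVB in WT skin, 9 with UVB in KO skin and 35 for KO against WT without UVB. Among the members named by rule and fitted in each comparison, it turned above 0 for UVB in WT skin in Krtap11-1 (0.95), Krtap13-1 (0.33), Krtap14 (0.84), Krtap15 (1.84), Krtap16-3 (0.5), Krtap2-4 (1.43), Krtap22-2 (0.31), Krtap28-13 (0.99), Krtap3-1 (1.11), Krtap3-2 (0.4), Krtap4-1 (1.12), Krtap4-16 (1.36), Krtap4-6 (0.62), Krtap4-7 (0.86), Krtap6-2 (0.83), Krtap7-1 (1.32) and Krtap8-1 (0.93). For UVB in KO skin it did so in Krtap14 (0.39), Krtap15 (0.21), Krtap28-13 (1.69) and Krtap4-8 (0.13). For KO against WT without UVB it did so in Krtap1-5 (0.56), Krtap11-1 (1.19), Krtap12-1 (0.03), Krtap14 (0.55), Krtap15 (1.43), Krtap16-3 (0.76), Krtap19-3 (0.51), Krtap2-4 (0.98), Krtap21-1 (0.21), Krtap22-2 (0.54), Krtap24-1 (0.62), Krtap3-1 (0.69), Krtap3-2 (0.31), Krtap4-1 (0.9), Krtap4-16 (0.83), Krtap4-6 (0.26), Krtap4-7 (0.53), Krtap6-2 (0.24), Krtap6-5 (0.76), Krtap7-1 (1.22) and Krtap8-1 (1.05). The uncalled Krtap3-2 difference between KO and WT without UVB was 0.03 without WT library 2 (and without libraries 2 of both WT groups) and 0.01 without KO library 3, within a range of -0.25 to 0.03 over the fits that left out 1 library. None of the positive values under the covariate was called in these 3 comparisons, and their standard errors were wide. With its SE, the value was 1.84 ± 1.28 for Krtap15 with UVB in WT skin. It was 0.13 ± 4.66 for Krtap4-8 with UVB in KO skin and 1.22 ± 0.64 for Krtap7-1 in KO against WT without UVB. The listed values therefore do not show that a single member changed direction. The cause of these changes was not tested. Of the single-gene values under all alternatives, 1292 kept direction and side of the threshold, 142 lost and 6 gained a call, and 45 changed sign.

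With the replicate number as a block, 49, 44, 44, 0 and 0 members were called in the 5 comparisons. The numbers do not pair the samples: deviations of same-numbered libraries correlated between -0.46 and 0.29, and not every library correlated best with its own number.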
